A study of Rattus norvegicus with 6 samples.

Results

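The ileal bile acid transport and sensing genes comprise 7 of the 28282 genes in the count tables: Slc10a2, Fabp6, Slc51a, Slc51b, Nr1h4, Nr0b2 and Abcc3. They were chosen as a pathway, by gene name. Their unique molecular identifiers (UMIs, each marking 1 captured transcript) were summed per library over nuclei of each cell class, in single-nucleus RNA-seq of rat ileum.

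The distal small intestine recovers most of the bile acids that the liver secretes. Slc10a2 (ASBT) takes them up with sodium across the brush border of enterocytes, Fabp6 (ileal bile acid-binding protein) carries them through the cytosol, and the heteromeric exporter Slc51a and Slc51b (OSTα and OSTβ) passes them across the basolateral membrane to portal blood. Abcc3 (MRP3) is a second basolateral exporter of bile acid conjugates. Inside the cell bile acids activate the nuclear receptor FXR, encoded by Nr1h4. FXR is known to induce Fabp6, Slc51a, Slc51b, the corepressor Nr0b2 (SHP) and the hormone that rodents call Fgf15 and the tables list as Fgf19. This hormone lowers bile acid synthesis in the liver.

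All 6 donors were wild-type male Sprague–Dawley rats aged 6 weeks, with 7 days of acclimatization. The 3 rats with severe acute pancreatitis (SAP) received 3% sodium taurocholate, itself a bile salt, into the pancreatic duct at 0.1 mL per 100 g body weight and 0.1 mL/min, followed by a 5 min clamp. The 3 control rats (CON) had a sham laparotomy with no infusion, so an effect of the infusion itself and one of the taurocholate cannot be told apart. All 6 were fasted with free access to water and killed at 24 h, and each rat gave 1 library.

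Of 90461 barcodes, 40970 passed the quality thresholds of the study. The number per library ranged from 6260 to 9246 in CON and from 3189 to 7893 in SAP, with 11402966 to 28771508 and 5549260 to 19435288 UMIs. The median mitochondrial share was 0.125% to 0.6997% of UMIs in CON and 0.387% to 1.84% in SAP. Clustering gave 25 clusters, and member genes and their pathway genes were left out of the genes used for it. Clusters 5 and 9 were called enterocyte-like from a list of enterocyte markers, all 15 of which were detected. They held 4159 nuclei, 535, 421 and 677 in CON replicates 1 to 3 and 481, 1388 and 657 in SAP replicates 1 to 3. Slc15a1 (the peptide transporter) and Anpep were among the 10 leading genes of cluster 5, and the villus tip genes Apoa4, Ada and Slc28a2 were among those of cluster 9. Cluster 1, with 5390 nuclei led by Car4, Ceacam20, Si and Slc26a3, resembled enterocytes most but did not pass the naming rule and is given by its number. The rule needed a lead of 1.0 over the next class, or of 0.7 with a listed marker among the 10 leading genes. Cluster 1 led by 0.727. The list held the symbol Sis, which had no match in the tables, so Si, the same gene, was not counted. With Si counted as a listed marker, a lead of 0.727 would meet the second condition. The naming was not rerun with Si. At resolution 0.4 a cluster led by Enpep, Tmigd1 and Si was named enterocyte, and 9367 nuclei held that name. Enterocyte-like below thus means clusters 5 and 9 only, and cluster 1, kept out by this symbol, is likely to hold enterocytes too.

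Slc10a2 and Fabp6, which define the ileum, were detected in every library. Onecut2, a factor of the duodenum, reached at most 1.66 CPM (a gene's UMIs relative to all UMIs of the same nuclei in that library, on the usual scale) in enterocyte-like nuclei. Gata4, which marks the proximal small intestine, was at 3.38, 41.3 and 36.0 CPM in CON replicates 1 to 3 and at 39.2, 0.306 and 14.4 CPM in SAP replicates 1 to 3. CON replicate 1 and SAP replicate 2 were low for Gata4, and the other 4 libraries were higher. The other position genes listed had other orders. Fabp1 was at 1850, 101 and 1722 CPM in CON and 969, 692 and 1680 CPM in SAP. For Fabp2 these were 1377, 310 and 1167 against 394, 146 and 2189 CPM. Lct was at 1.93, 1.29 and 40.3 against 166, 10.1 and 53.6 CPM. Cubn was at 37.7, 9.04 and 134 against 220, 126 and 115 CPM. Amn was at 230, 81.4 and 283 against 264, 361 and 246 CPM. Guca2a was at 4014, 329 and 714 against 1295, 380 and 807 CPM. The labels give no distance of each segment from the cecum.

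CON replicate 1 stood apart from the other 5 libraries for many of the genes described here, and the main comparisons are therefore given with and without it. In enterocyte-like nuclei the trimmed-mean (TMM) scaled CPM of each of the 10910 tested genes in CON replicate 1 was divided by that in the highest of the other 5 libraries. Genes were ranked after 1 was added to both values, and the ratios printed are without that addition. Fgf19 ranked 1 with a ratio of 37.2, Fabp6 ranked 4 with 7.44, Slc51b ranked 5 with 7.04, Slc51a ranked 11 with 4.60 and Slc10a2 ranked 29 with 3.08. Abcc3 ranked 520 with 1.41, and for Nr1h4 this library was not the highest. CON replicate 1 was the highest library for 1759 genes, or 16.1% of those tested.

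Several other values moved with this library, and their part in the result was not tested. The summed level of 5 villus base markers in enterocyte-like nuclei was 50971 CPM in CON replicate 1 and 7363 to 21271 CPM elsewhere, with 4 of the 5 genes highest in CON replicate 1. The summed level of 5 villus tip markers was 755 CPM there, the lowest of the 6 libraries, and 1519.8 to 4070.1 CPM elsewhere. The 7 Paneth markers summed to 30454 CPM in CON replicate 1 and 41324 CPM in SAP replicate 1, against 1758 to 2894 CPM in the other 4 libraries. SAP replicate 1 was the second highest library for Slc51a and Slc51b and the lowest for Slc10a2. Among the other genes highest in CON replicate 1 were C3, Efna3 and Sct, which ranked 2, 3 and 6.

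FXR, with its partner RXR, is known to bind an inverted repeat of AGGTCA with 1 base between the repeats. Promoters are therefore shown for the 3 members highest above the other libraries in CON replicate 1, among the 6 tested in enterocyte-like nuclei. Nr0b2 was too rare to be tested and was not ranked, and its promoter is not printed. Yet Nr0b2 was found in 7.85% of enterocyte-like nuclei of CON replicate 1 and in at most 0.457% of those of any other library. The motif AGGTCANTGACCT, which reads the same on both strands and overlaps no other motif searched, was compared with the 250 bases before the annotated start of 33469 RefSeq promoters (GRCr8). Of the 7 members, 5 had an entry. Capitals mark the 13 bases closest to the motif. Fabp6 is given for all 250 bases at chr10:28569728-28569977 on the minus strand, Slc51a for 61 bases at chr11:81804040-81804100 on the plus strand, and Slc51b for 61 bases at chr8:74835189-74835249 on the minus strand.
Fabp6: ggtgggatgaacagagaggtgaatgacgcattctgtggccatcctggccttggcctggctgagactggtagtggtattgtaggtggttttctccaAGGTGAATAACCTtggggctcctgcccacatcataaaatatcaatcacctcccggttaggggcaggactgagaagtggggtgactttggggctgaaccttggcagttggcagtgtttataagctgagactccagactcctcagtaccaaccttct
Slc51a: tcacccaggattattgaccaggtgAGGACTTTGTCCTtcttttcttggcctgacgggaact
Slc51b: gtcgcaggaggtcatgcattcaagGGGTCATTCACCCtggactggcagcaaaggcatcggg
The Fabp6 stretch lay at -155 to -143 from the start and differed from the motif at 2 of its 12 fixed letters, a closeness that 1.24% of all promoters reached. The Slc51a stretch at -77 to -65 and the Slc51b stretch at -116 to -104 differed at 3 letters, and 10.3% of promoters came at least as close. Slc10a2 and Nr0b2 came no closer than 4 mismatches, which 51.0% of promoters reached. These matches describe letters in these windows and say nothing of binding.

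Levels were ordered over 20 classes and clusters, each holding 10 nuclei or more in all 6 libraries. Slc10a2, Slc51a and Slc51b were highest in absorptive nuclei. Levels here are CPM without further scaling, as mean and SD over 6 libraries, and are descriptions with no test. Slc10a2 was highest in enterocyte cluster 5, at 402 ± 245 CPM (SD, n = 6), then in cluster 1 at 211 ± 62.4 and in the villus tip cluster 9 at 125 ± 46.3. It was higher in cluster 5 than in cluster 9 in 6 of 6 libraries, by a median of 2.85-fold, and higher in cluster 5 than in cluster 1 in 5 of 6. The step from cluster 1 to cluster 9 exceeded the larger SD, while that from cluster 5 to cluster 1 did not. Below cluster 9 neighbours differed by less than their spread, and Paneth nuclei were lowest at 24.6 ± 19.4 CPM.

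Slc51a and Slc51b, the exporter subunits, followed the same order. Slc51a was at 1561 ± 1551 CPM in cluster 5, 1175 ± 788 in cluster 1 and 648 ± 447 in cluster 9 (SD, n = 6). Slc51b was at 496 ± 558, 330 ± 329 and 226 ± 232 CPM. No step in either order exceeded the larger SD, but within libraries Slc51b was higher in cluster 5 than in cluster 1 in 6 of 6 (1.02 to 1.87-fold) and Slc51a was higher in cluster 1 than in cluster 9 in 6 of 6 (1.46 to 2.68-fold). Fabp6 led in cluster 5 at 3650 ± 5540 CPM, where CON replicate 1 set both the mean and the SD. Without that library the order changed for Fabp6, with the unnamed cluster 6 first at 2163 ± 1273 CPM, endothelial nuclei second at 1542 ± 388, then cluster 1 at 1456 ± 486 and cluster 5 at 1419.5 ± 1026 (SD, n = 5). For Slc10a2, Slc51a and Slc51b cluster 5 stayed first and cluster 1 second without it.

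Nr1h4 had another order. Its level was highest in cluster 1, at 779.5 ± 191 CPM, above cluster 5 at 497 ± 125 CPM in 6 of 6 libraries, and this step exceeded the larger SD. It was higher in cluster 5 than in cluster 9 in 6 of 6 libraries by 1.52 to 3.73-fold. Nr1h4 was also found in cluster 2 (496 ± 255 CPM) and in T nuclei (398 ± 220 CPM), and Paneth nuclei were lowest at 90.1 ± 62.6 CPM.

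Abcc3 was highest in the unnamed cluster 1 and in goblet cluster 14. It reached 176 ± 54.1 CPM in cluster 1 and 168 ± 72.7 CPM in goblet cluster 14, which differed by less than their spread, against 101 ± 35.5 CPM in enterocyte cluster 5, which ranked 8, and 56.8 ± 28.0 CPM in enterocyte cluster 9, which ranked 19 of 20. In goblet cluster 14 it was above the non-epithelial level of the same library in 6 of 6 libraries, by 1.13 to 2.76-fold. The same held in 2 of 6 libraries for Slc51b, in 1 of 6 for Slc10a2 and for Slc51a, and in 0 of 6 for Fabp6, Nr1h4 and Nr0b2. Nr0b2 was rare, with 108 UMIs in cluster 5 over all libraries and a mean of 11.3 ± 23.4 CPM. Fgf19 was highest in cluster 5 at 60.6 ± 137 CPM and in cluster 9 at 28.0 ± 45.4 CPM. CON replicate 1 gave 563 of the 600 Fgf19 UMIs of cluster 5. Without that library the order turned, with Fgf19 at 9.66 ± 8.33 CPM in cluster 9 and 4.90 ± 4.90 CPM in cluster 5 (SD, n = 5). Nr0b2 was then highest in the unnamed cluster 16, at 8.71 ± 9.01 CPM, and cluster 5 was not among its 4 highest.

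**Figure D1:**
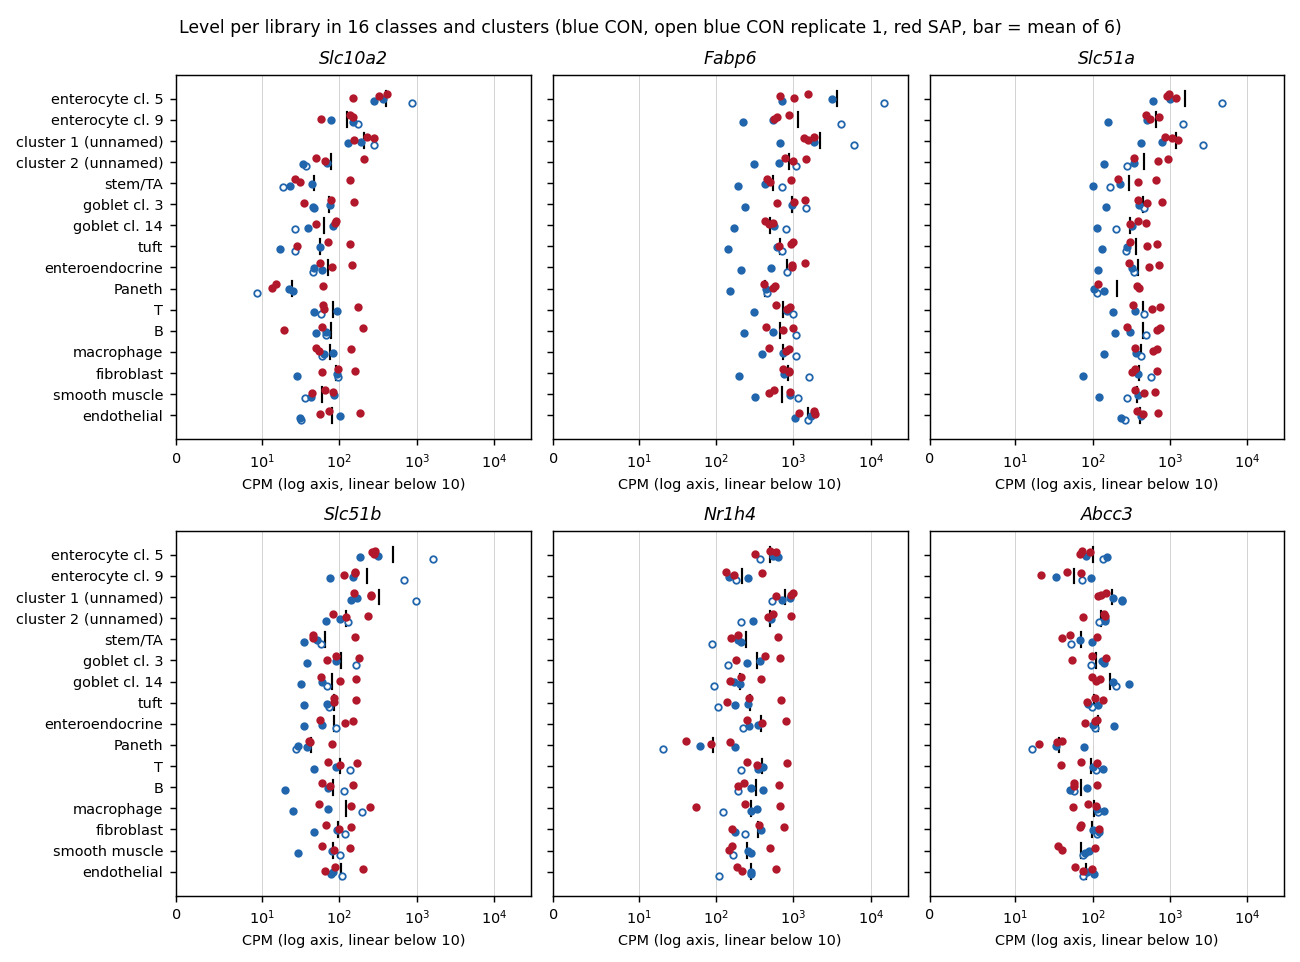
Level in CPM (log axis, linear below 10) of 6 members in 16 classes and clusters, with 1 point per library (blue CON, open blue CON replicate 1, red SAP) and a bar at the mean of 6. Slc10a2, Slc51a and Slc51b lead in enterocyte cluster 5 and cluster 1, Nr1h4 leads in cluster 1, and the open point stands to the right of all others in the absorptive clusters for Fabp6, Slc51a and Slc51b.

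Over the 20 classes and clusters, among 8442 genes with at least 50 CPM in their highest class, the pattern most like that of Slc10a2 was that of Dpp4, a brush border peptidase (Pearson r of mean log2(CPM + 1) = 0.98), followed by Tmigd1 (0.97), Slc13a1 (0.97), Ipmk (0.96) and Slc5a12 (0.96). For Fabp6 the 5 closest were Rbp2 (0.95), Cndp2 (0.93), Smim24 (0.93), Ly6al (0.92) and Slc51a (0.91). For Nr1h4 they were Slc26a3, the chloride and bicarbonate exchanger (0.97), Ceacam20 (0.96), Rnf152 (0.96), Entpd5 (0.95) and Lrrc75a (0.95). The points share libraries and depth, so these values are descriptions.

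Member transcripts were also counted in non-epithelial nuclei, whose level is taken here as the background. Whether this background is free RNA in the droplets was not tested. The set held 10054 nuclei of the immune, stromal and other non-epithelial classes, with the unnamed clusters 16 and 23. These were placed by their closest named classes, neuron or glia and fibroblast. Cluster 16 (764 nuclei) gave 625622 of the 3480835 non-epithelial UMIs of SAP replicate 2. After thinning each nucleus to 1200 UMIs, Fabp6 was found in 61.9%, 29.0% and 50.8% of non-epithelial nuclei of CON replicates 1 to 3 and in 51.6%, 67.1% and 43.8% of those of SAP replicates 1 to 3. Median depth before thinning was 1861 UMIs there and 1912 UMIs in enterocyte-like nuclei. Non-epithelial shares ranged from 15.9% to 58.2% for Slc51a, 16.7% to 53.5% for Nr1h4, 5.02% to 17.8% for Slc10a2 and 4.17% to 19.0% for Slc51b. Every member except Nr0b2 was thus found in the non-epithelial nuclei of all 6 libraries.

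The enterocyte-like level divided by the non-epithelial level of the same library shows how far each gene stood above this background. Slc10a2 was 12.5, 5.89 and 3.01 times the background in CON replicates 1 to 3 and 2.28, 1.57 and 4.64 times in SAP replicates 1 to 3. Fabp6 was 11.5, 1.60 and 2.33 times in CON and 1.04, 0.699 and 1.82 times in SAP. Fabp6 in SAP replicates 1 and 2 was therefore close to or below the background, and its values there are not read as expression in clusters 5 and 9 together. Taken singly, cluster 5 was above the background for Fabp6 in 5 of 6 libraries (0.726 to 13.4-fold) and cluster 9 in 2 of 6. In cluster 1 Fabp6 was above it in 6 of 6 (1.45 to 5.42-fold). In enterocyte-like nuclei Slc51a was at 9.54, 3.09 and 2.26 times in CON and 1.85, 1.19 and 2.34 times in SAP, and Slc51b at 10.6, 3.83 and 3.17 times in CON and 2.56, 1.41 and 3.63 times in SAP. The groups overlapped for each of these 4 genes, with an exact two-sided permutation p of 0.2, where 0.1 is the smallest that 3 against 3 can give. Nr1h4 was at 1.72, 1.83 and 1.25 times the background in CON and 1.08, 0.714 and 1.38 times in SAP (exact permutation p = 0.2), so that SAP replicate 2 was below it. Abcc3 in enterocyte-like nuclei was at 0.705 to 1.32 times the background.

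Fabp6 in endothelial nuclei differed from that in T nuclei, the class taken for comparison. It was above the level in T nuclei in 6 of 6 libraries, by 1.31 to 3.46-fold with a median of 2.18, whereas Slc51a was above T nuclei in 3 of 6. The ratio of Fabp6 to Slc51a UMIs in endothelial nuclei was 1.71 to 5.79, above that in T nuclei of the same library (1.25 to 2.36) in 6 of 6. The unnamed cluster 6, in which ribosomal protein genes and the goblet gene Spink4 led, also had a higher ratio than T nuclei in 6 of 6 libraries, at 1.82 to 8.91. A ratio above that of T nuclei also held in 6 of 6 for all non-epithelial nuclei together, which include T and endothelial nuclei, and in 5 of 6 for fibroblasts. In enterocyte-like nuclei it held in 2 of 6, with a ratio of 0.778 to 3.12, and in cluster 1 in 3 of 6, with 1.23 to 2.34. A higher ratio than in T nuclei held in 4 of 6 for stem and transit-amplifying nuclei, 3 of 6 for macrophages and smooth muscle and 2 of 6 for B nuclei. The Fabp6 level of fibroblasts was above T nuclei in 3 of 6.

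The main comparison asked whether bile acid genes differed between SAP and CON within enterocyte-like nuclei. No member was called by edgeR's quasi-likelihood test at an adjusted p under 0.05: 0 of 6 tested members, where 1 of 10910 genes (0.00917%), St8sia6, was called in all. Before adjustment 1 of 6 members, Fabp6, had p under 0.05, against 7.77% of all genes, and DESeq2 called 0 of 7 members against 0.129% of all genes. With the replicate number as a block edgeR called 2 genes, neither of them a member. All 6 tested members had a lower fitted level in SAP, and the median of their log2 fold changes was -1.09 beside -0.00 over all tested genes. Without CON replicate 1, 3 of the 6 were lower and 3 higher, with a median of 0.01. Values per rat in the next paragraphs are TMM-scaled CPM, and fold changes are log2, SAP over CON.

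Slc10a2, the uptake transporter, was at 917, 194 and 255 CPM in CON replicates 1 to 3 and at 139, 265 and 298 CPM in SAP replicates 1 to 3. CON replicate 1 was 3.08-fold above the next library and the remaining 5 overlapped. The fold change was -0.96 (SE 0.588, adjusted p = 0.694, edgeR), and 0.06 (SE 0.371) without CON replicate 1. The share of enterocyte-like nuclei with a UMI was 48.2%, 24.7% and 23.6% in the CON rats and 11.9%, 24.9% and 25.7% in the SAP rats (exact permutation p = 0.6). SAP replicate 1 was the lowest library in both measures.

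Fabp6, the cytosolic binding protein, varied most among the 6 tested members, by 34.8-fold between its highest and lowest library. It was at 15972, 459 and 2148 CPM in CON and at 1012, 669.7 and 1229.5 CPM in SAP. CON replicate 2 was the lowest of the 6 and CON replicate 1 the highest, so that both extremes were controls and the SAP rats lay between them. The fold change was -2.67 (SE 1.10, adjusted p = 0.629, edgeR) and, without CON replicate 1, -0.42 (SE 0.575, adjusted p = 0.909).

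The excess in CON replicate 1 was spread over its enterocyte-like nuclei and did not come from a few. After thinning, the median nucleus there held 5 Fabp6 UMIs and 51.2% held 5 or more. In the other 5 libraries the median was 0 or 1 and 0.576% to 5.02% held 5 or more. Fabp6 was found in 92.5%, 38.7% and 52.9% of these nuclei in CON and in 51.8%, 50.1% and 49.5% in SAP (exact permutation p = 0.7). The 3 SAP shares lay close together and between those of CON replicates 1 and 2.

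Slc51a, the larger exporter subunit, was at 5118.5 CPM in CON replicate 1, 386 in replicate 2 and 794 in replicate 3, and at 1112, 860.3 and 747 CPM in SAP. The fold change was -1.21 (SE 0.845, adjusted p = 0.729), and it turned to 0.62 (SE 0.410, adjusted p = 0.788) without CON replicate 1. Slc51b, the partner it needs to reach the membrane, was at 1819.5, 125 and 248 CPM in CON and 258, 230.3 and 234 CPM in SAP, with a fold change of -1.60 (SE 0.855, adjusted p = 0.665) that turned to 0.37 (SE 0.350) without that library. The SAP rats were close to one another for both subunits, and the CON rats lay on both sides of them.

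The subunits were also compared with each other. The ratio of Slc51b to Slc51a UMIs in enterocyte-like nuclei was 0.355, 0.323 and 0.312 in the CON rats and 0.232, 0.268 and 0.314 in the SAP rats, a log2 difference of -0.29 (exact permutation p = 0.2). The groups overlapped through SAP replicate 3. They did not overlap in enterocyte cluster 5 alone (log2 difference -0.23, exact permutation p = 0.1) or when nuclei were limited to 1% mitochondrial UMIs (-0.32, exact permutation p = 0.1), where 0.1 is the smallest possible. They did overlap in enterocyte cluster 9 alone (-0.70, exact permutation p = 0.2) and with doublets removed (-0.31, exact permutation p = 0.2). In non-epithelial nuclei the ratio was 0.320, 0.261 and 0.222 in the CON rats and 0.167, 0.227 and 0.203 in the SAP rats. The log2 difference there was -0.42 (exact permutation p = 0.2), larger than in enterocyte-like nuclei, and the groups overlapped. The level of Slc51a ranged 13.3-fold and that of Slc51b 14.6-fold over the same rats, while the ratio stayed between 0.232 and 0.355.

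Abcc3, the second exporter, was at 154, 109 and 62.8 CPM in CON and 59.8, 86.4 and 60.0 CPM in SAP. The groups overlapped, and the fold change was -0.65 (SE 0.362, adjusted p = 0.667) and -0.31 without CON replicate 1. As its level did not stand above the non-epithelial background here, this is not read as a change in enterocytes.

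Nr1h4, the bile acid receptor, had the smallest range of the tested members. It was at 423, 425 and 389 CPM in CON and 313, 535 and 344 CPM in SAP, a 1.71-fold range over 6 rats. These levels were close to the non-epithelial background given above, and the highest of them, in SAP replicate 2, was below it. The level summed over clusters 5 and 9 is therefore not read as expression in those clusters together. Taken singly, cluster 5 was above the background in 5 of 6 libraries (0.816 to 2.16-fold) and cluster 9 in 0 of 6. Cluster 1 was above it in 6 of 6 (1.26 to 3.94-fold). The fold change of the summed level was -0.05 (SE 0.300, adjusted p = 0.977), and -0.04 without CON replicate 1. CON replicate 1 was in the middle of the range for this summed level.

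Nr0b2 was too rare in enterocyte-like nuclei to be tested with all genes. It was found in 42 of 535 nuclei of CON replicate 1 (7.85%), in 1 of 421 and 1 of 677 of the other CON rats, and in 0 of 481, 1 of 1388 and 3 of 657 nuclei of the SAP rats, where 0 of 481 allows a share of up to 0.624%. Intervals and limits of this kind cover counting error only. Fgf19 was found in 120 of 535 nuclei of CON replicate 1 (22.4%), 0 of 421 (up to 0.713%) and 6 of 677 in the other CON rats, and 2 of 481, 14 of 1388 and 7 of 657 in SAP. In non-epithelial nuclei Nr0b2 was found in up to 0.558% and Fgf19 in up to 1.28%, shares that only CON replicate 1 exceeded here. By CPM within the same library, Fgf19 was higher in enterocyte-like than in non-epithelial nuclei in 5 of 6 libraries. The ratio was 4.12 to 17.8 in the 4 libraries where both levels were above 0. For Nr0b2 the enterocyte-like level was higher in 2 of 6. The level of Fgf19 was 372, 0 and 7.72 CPM in CON and 8.91, 10.0 and 7.02 CPM in SAP. The fold change was -3.86 (SE 1.61, adjusted p = 0.629), and 0.97 (SE 0.884) without CON replicate 1. The 3 SAP rats were again within the range of the controls.

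**Figure D2:**
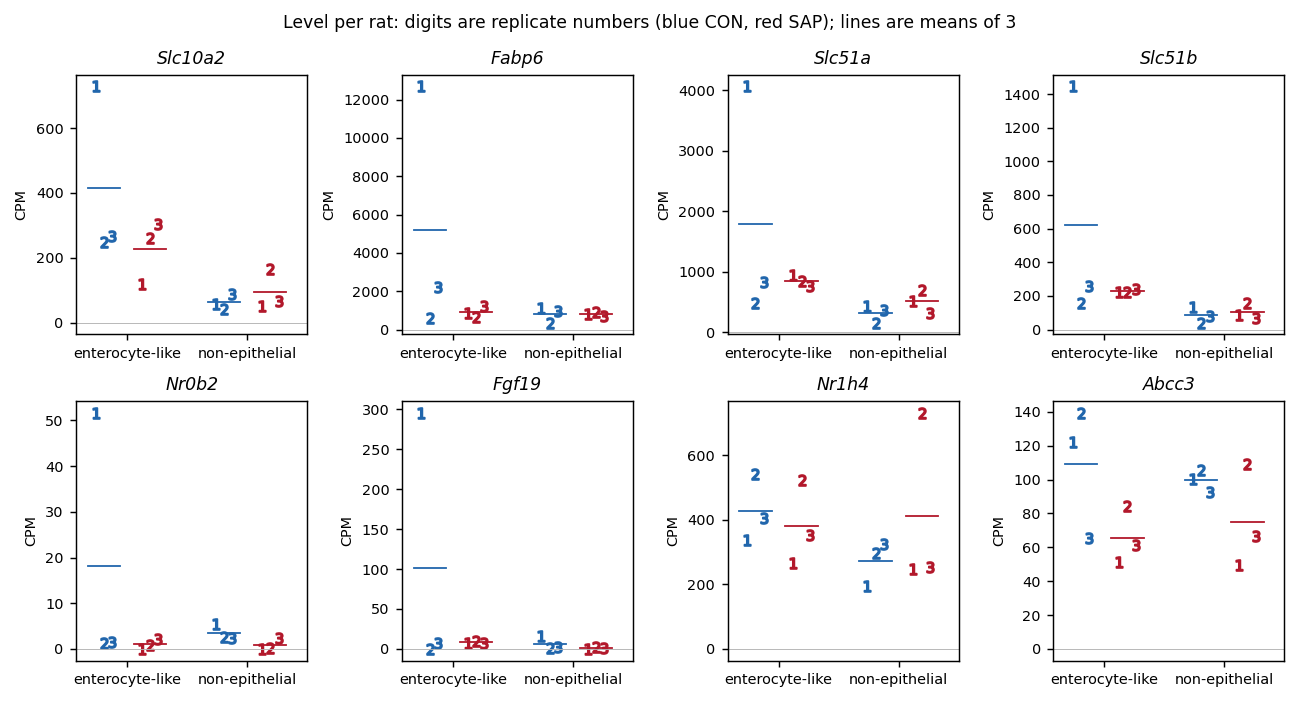
CPM (linear axis, without TMM scaling) of 7 members and Fgf19 in enterocyte-like and in non-epithelial nuclei, with digits for the replicate number (blue CON, red SAP) and lines at the means of 3. CON replicate 1 lies far above the other 5 rats in enterocyte-like nuclei for Slc10a2, Fabp6, Slc51a, Slc51b, Nr0b2 and Fgf19 but not for Nr1h4 and Abcc3.

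**Figure D3:**
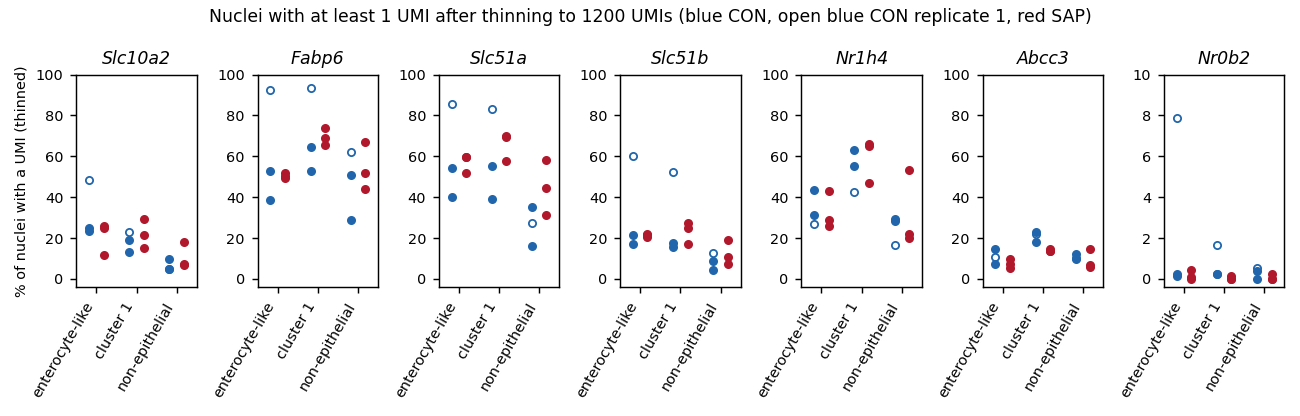
Percent of nuclei with at least 1 UMI after thinning to 1200 UMIs, per library, in enterocyte-like nuclei, cluster 1 and non-epithelial nuclei (blue CON, open blue CON replicate 1, red SAP, Nr0b2 on its own scale). The Fabp6 shares of the 3 SAP rats in enterocyte-like nuclei, 49.5% to 51.8%, fall inside their non-epithelial range of 43.8% to 67.1%.

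Both enterocyte-like clusters were fitted alone. In cluster 5 Fabp6 was at 20274.6, 578 and 2981 CPM in CON and 1223, 680.3 and 1439.9 CPM in SAP, with a fold change of -2.83 (SE 1.13, adjusted p = 0.650) that became -0.67 without CON replicate 1. In the villus tip cluster 9 it was at 4577, 193 and 575 CPM in CON and 713, 632 and 969 CPM in SAP, with -1.21 (SE 0.865), which turned to 1.00 (SE 0.503) without that library. Slc10a2 in cluster 9 was at 194, 132 and 81.8 CPM in CON and 72.8, 154 and 152 CPM in SAP, a fold change of -0.06. CON replicate 1 was the highest library for Slc10a2 in both clusters, by a smaller margin in cluster 9.

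Cluster 1, the nuclei nearest to enterocytes, repeated the high values of CON replicate 1. Fabp6 was at 7525, 592 and 1709.6 CPM in CON and 1771, 1414 and 1682 CPM in SAP, Slc51a was at 3359, 372 and 729.6 CPM against 1434, 1092 and 777 CPM, and Slc51b was at 1246, 126 and 157 CPM against 290.0, 269.5 and 144 CPM. None of the 6 tested members was called, where 0.00894% of the 11184 genes tested were. Without CON replicate 1 Slc51a was at a log2 fold change of 1.01 (SE 0.371, adjusted p = 0.445) and Slc10a2 at 0.64 (SE 0.293). In non-epithelial nuclei CON replicate 1 was not far apart: Fabp6 was at 1174 CPM there and at 349.8 to 1036 CPM in the other 5 libraries, and Slc51a at 452 CPM was below SAP replicates 1 and 2 (569.6 and 779.7 CPM).

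Over all epithelial nuclei, and over all nuclei, fewer nuclei of a class and less RNA per nucleus cannot be told apart. Enterocyte-like nuclei made up 5.79%, 6.73% and 8.05% of nuclei in CON and 15.1%, 23.3% and 8.32% in SAP, with no overlap (exact permutation p = 0.1, the smallest possible). Together with cluster 1 they made up 16.8%, 20.6% and 18.9% in CON and 34.4%, 45.0% and 16.9% in SAP, which overlapped (p = 0.3, exact permutation). As a share of all nuclei, SAP replicates 1 and 2 thus held more absorptive nuclei than any control, and SAP replicate 3 did not. Non-epithelial nuclei made up 45.5% of SAP replicate 3. Of epithelial nuclei alone, enterocyte-like nuclei made up 7.18%, 7.67% and 11.8% in CON and 17.5%, 26.8% and 15.3% in SAP. These shares did not overlap (exact permutation p = 0.1), so SAP replicate 3 was also above every control. The cluster 1 share of epithelial nuclei overlapped (exact permutation p = 0.3).

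No member was called in these sums either. In all epithelial nuclei edgeR called 0 of 7 members and 0 of all 16898 genes (0.0%), with 0 of 7 members at an unadjusted p under 0.05 against 11.4% of genes, and DESeq2 called 0 of 7 against 1.25% of genes. In all nuclei edgeR called 0 of 7 members and 0.0% of 19187 genes, with 0 of 7 at an unadjusted p under 0.05 against 8.43%, and DESeq2 called 0 of 7 against 0.795%. The largest positive fitted change was that of Nr1h4 in epithelial nuclei, at 223, 300.3 and 347 CPM in CON and 362, 763 and 340.1 CPM in SAP, with a log2 fold change of 0.75 (SE 0.359, adjusted p = 0.468) that was 0.28 without SAP replicate 2. SAP replicate 2 was the highest of the 6 there and held the most absorptive nuclei.

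Nr0b2 could be tested in these sums. It was at 12.2, 1.39 and 1.36 CPM in CON and 1.45, 0.712 and 1.56 CPM in SAP in epithelial nuclei, a log2 fold change of -2.02 (SE 0.956, adjusted p = 0.463) that was -0.14 without CON replicate 1. Fabp6 (-0.53) and Slc51b (-0.25) in epithelial nuclei turned to 0.80 and 1.06 without that library. Slc51a, at 0.33 with all libraries, was at 1.37 (SE 0.506, adjusted p = 0.541) without it.

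**Figure D4:**
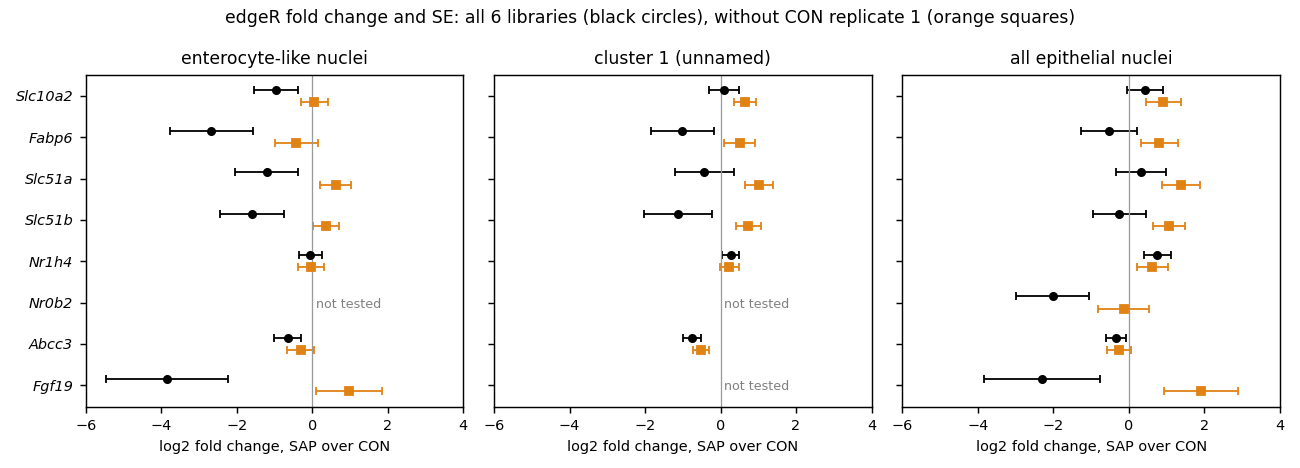
Log2 fold change of SAP over CON with its SE from edgeR for 7 members and Fgf19 in enterocyte-like nuclei, cluster 1 and all epithelial nuclei, with all 6 libraries (black circles) and without CON replicate 1 (orange squares). In enterocyte-like nuclei the estimates for Fabp6, Slc51a, Slc51b, Slc10a2 and Fgf19 move by more than 1 log2 unit toward or past 0, and those for Nr1h4 and Abcc3 move least.

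Over 25 fits (named classes, single clusters and the larger sums, which share nuclei), members were tested 147 times and called 0 times, where 0.00803% of all 236711 tests were called. The smallest adjusted p of a member was 0.220. Before adjustment 20 of 147 had p under 0.05, against 8.28% of all tests, and the groups did not overlap in 10 of 147, against 14.1% of all tests. The share called and the share without overlap were no higher for the members than for all genes. The share with an unadjusted p under 0.05 was higher for the members, in tests that share rats and nuclei. With so few calls among all tests, 0 of 147 does not set the members apart.

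Abcc3 in cluster 1 and in goblet cluster 14 had the smallest p-values of a member with a lower level in SAP. A lower fitted level was not particular to them. Abcc3 was lower in SAP in 15 of 18 classes and clusters and higher in 3, with 2 at an unadjusted p under 0.05 (edgeR) and none called. In goblet cluster 14 it was at 239, 305 and 196 CPM in CON and 141, 138 and 106 CPM in SAP (log2 fold change -0.97, SE 0.287, adjusted p = 0.220, edgeR). In cluster 1 it was at 298, 214 and 169 CPM in CON and 133, 132 and 135 CPM in SAP, a fold change of -0.76 (SE 0.232, adjusted p = 0.367). All 3 SAP rats were below all 3 CON rats in both clusters, as were 8.88% and 9.27% of all genes tested there. Neither passed the adjusted threshold, which 0.0549% of genes in goblet cluster 14 did. Without CON replicate 1 the fold changes were -1.01 and -0.52. The share of cluster 1 nuclei with an Abcc3 UMI was 21.8%, 23.2% and 18.2% in the CON rats and 13.8%, 13.5% and 14.8% in the SAP rats (exact permutation p = 0.1, the smallest possible). The non-epithelial share of CON rats was 10.0%, 12.0% and 9.56%, and that of SAP rats was 5.73%, 14.6% and 6.82%. SAP replicate 2 thus did not exceed its background in this share. By CPM, Abcc3 in cluster 1 was above the non-epithelial level in 6 of 6 libraries, by 1.16 to 2.38-fold. Without TMM scaling, the non-epithelial level itself was 99.7 ± 6.38 CPM in CON and 75.2 ± 30.7 CPM in SAP (SD, n = 3), and the groups overlapped. In goblet cluster 3 the groups overlapped, with a log2 fold change of -0.20 (SE 0.327). In tuft nuclei they overlapped with 0.32 (SE 0.289), the highest fold change of the 18. Of all 6 members tested in goblet cluster 14, 4 had an unadjusted p under 0.05 (edgeR), against 603 of 5460 genes, and none was called. Of the same 6, 4 were fitted higher in SAP and 2 lower.

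Outside the absorptive clusters Slc51a was fitted higher in SAP in most classes. It was higher in 17 of 20 classes and clusters, with 5 at an unadjusted p under 0.05 and none called (smallest adjusted p 0.297). In tuft nuclei it was at 286, 134 and 285 CPM in CON and 621, 771 and 306 CPM in SAP (log2 fold change 1.24, SE 0.382, adjusted p = 0.347). In stem and transit-amplifying nuclei it was at 181, 96.6 and 217 CPM in CON and 410, 703 and 194 CPM in SAP (log2 fold change 1.40, SE 0.473, adjusted p = 0.583). SAP replicates 1 and 2 were high in both, and SAP replicate 3 was just above the controls in tuft nuclei and among them in stem nuclei. SAP replicates 1 and 2 were also highest in non-epithelial nuclei (569.6, 779.7 and 293 CPM in SAP against 452, 152 and 341 CPM in CON), and the part of that background in these classes was not tested.

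Nr1h4 was fitted higher in SAP in 19 of 20 classes and clusters, with 5 at an unadjusted p under 0.05 and none called (smallest adjusted p 0.306). In cluster 2 it was at 223, 278 and 480 CPM in CON and 530, 1087 and 500 CPM in SAP (adjusted p = 0.306, edgeR). In cluster 16 it was at 303, 215 and 360 against 485, 954 and 420 CPM (adjusted p = 0.537, edgeR). The groups did not overlap in either, as in 14.1% of all tests over the 25 fits, and SAP replicate 2 was the highest library in both. In stem and transit-amplifying nuclei it was at 94.9, 205 and 185 CPM in CON and 165, 686 and 181 CPM in SAP, so that SAP replicate 2 was far above every other library and the other SAP rats lay among the controls. The log2 fold change of 1.09 (SE 0.587, adjusted p = 0.702) was 0.09 without SAP replicate 2. Slc10a2 in these nuclei had its highest value in the same library, at 147 CPM against 20.5 to 43.1 CPM elsewhere. In non-epithelial nuclei SAP replicate 2 was likewise highest for Nr1h4 (809.9 CPM) and Slc10a2 (183 CPM).

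**Figure D5:**
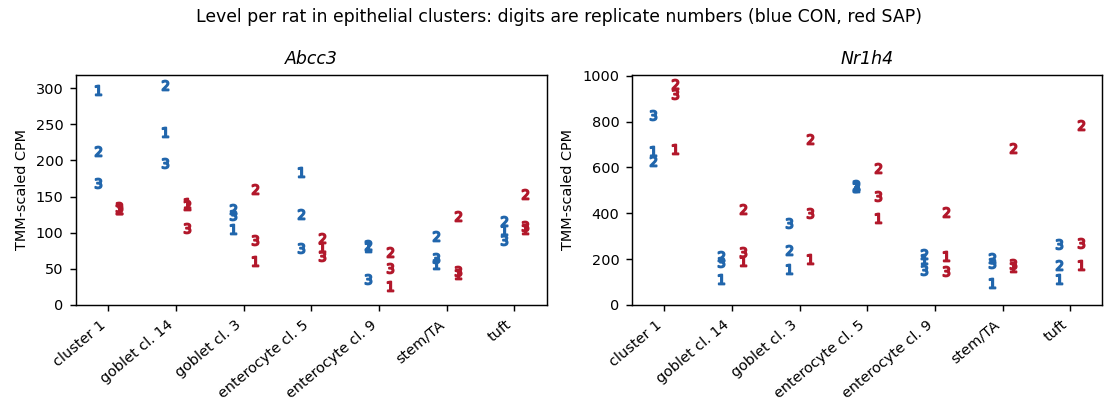
TMM-scaled CPM of Abcc3 and Nr1h4 per rat in 7 epithelial classes and clusters, with digits for the replicate number (blue CON, red SAP). For Abcc3 the SAP digits lie below all CON digits in cluster 1 and goblet cluster 14, and for Nr1h4 SAP replicate 2 is the highest digit in all 7.

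The rest of the pathway was read from lists of related genes. In enterocyte-like nuclei 14 of 29 other bile acid transport and metabolism genes were tested, 8 fitted higher and 6 lower in SAP around a median of 0.20 (log2), and 0 were called by edgeR. Of the regulators, 24 of 25 were tested, 10 higher and 14 lower with a median of -0.03, and 0 called. Among them Hnf4a was at 0.35 (SE 0.291), Gata4 at -0.40 (SE 1.17), Rxra, the partner of FXR, at 0.53 (SE 0.337), Vdr at -0.10 (SE 0.254) and Nr1i2, the pregnane X receptor, at 0.15 (SE 0.324). Abcc2 was at 0.18 (SE 0.745), and the sterol exporter subunits Abcg5 and Abcg8 at -0.15 (SE 0.378) and -0.36 (SE 0.389). Abcb11, the bile salt export pump, stayed between 0.967 and 3.98 CPM and the membrane bile acid receptor Gpbar1 at 0.613 CPM or less, too low to be tested. Of 8 FXR targets listed outside the members, where Fgf15 and Fgf19 are the same gene in the tables, 3 were tested. Of these, 1 was higher and 2 lower, with 0 called. Of 10 genes of position along the intestine 9 were tested, 3 higher and 6 lower, with 0 called. The members Slc10a2 and Fabp6 are on that list and were among the lower ones. These list counts use all 6 libraries.

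Slco2b1, an organic anion uptake carrier, had the smallest p-value among the listed pathway genes in enterocyte-like nuclei. It was at 97.3, 85.0 and 57.7 CPM in CON and 10.2, 14.4 and 23.2 CPM in SAP, with all 3 SAP rats below all 3 CON rats, a separation in either direction that 13.9% of tested genes had. The log2 fold change was -2.28 (SE 0.380, adjusted p = 0.341, edgeR), which did not pass the threshold, while DESeq2 called it (adjusted p = 0.000797). Without CON replicate 1 it was -2.13 (SE 0.423). In cluster 1 Slco2b1 was at -2.24 (SE 0.343, adjusted p = 0.214, edgeR) with all libraries and -2.14 without that one. DESeq2 called it in cluster 1 (adjusted p = 2.42e-05), over all epithelial nuclei (3.90e-05) and over all nuclei (0.000125). It called 0.783%, 1.25% and 0.795% of all genes in these 3 fits. Cyp3a9 and Cyp3a62, enzymes that hydroxylate bile acids and steroids, were at 1.67 (SE 0.671) and 1.25 (SE 0.582), and Jun at 1.35 (SE 0.512) in enterocyte-like nuclei. None of these 3 was called there by DESeq2 or by edgeR in the main fit. With every gene with a count, edgeR called Slco2b1 (adjusted p = 1.36e-05), Cyp3a9 (0.00384) and Jun (0.0254) there, among 160 genes called. DESeq2 called Cyp3a9, Cyp3a62 and Jun over all epithelial nuclei, at adjusted p = 0.0275, 0.0334 and 0.0272.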

How the data were processed

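Single-nucleus RNA-seq libraries of rat ileum (DNBelab C kit) were grouped from the labels as 3 CON and 3 SAP, 1 library per rat, so p-values measure the spread between 3 rats per group. The authors deposited raw UMI counts per gene and barcode, made with dnbc4tools and PISA on mRatBN7.2, and the submitters' processing notes name Seurat 4.3.0. The aligner settings and the use of strand are not given in the sources used here. Barcode names are running numbers, and 9.23% to 31.3% of the smaller library's names recurred in another library.

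From these counts, nuclei were kept from 1200 UMIs and 500 genes upward if mitochondrial UMIs did not exceed 5%, and the study kept fewer nuclei. Clustering used 2000 variable genes without the members and list genes, 30 principal components and Leiden resolution 0.8 (scikit-learn 1.9.0, leidenalg 0.10.2). Classes were named from marker lists, so class names are rebuilt and may differ from those of the study. Doublets were kept in the main results, and removal with Scrublet (scanpy 1.11.5) was an alternative.

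Counts were summed per library and class (at least 10 nuclei in every library) and tested with edgeR 4.0.16 (filterByExpr, TMM, quasi-likelihood, Benjamini-Hochberg over all genes tested) in R 4.3.3, and a gene was called when its adjusted p was below 0.05 and its log2 fold change reached 0.5 in either direction. Alternatives were DESeq2 1.42.0, every gene with a count, other nucleus filters, another resolution, a replicate block and each library left out. Shares, ratios and subunit ratios were compared with exact two-sided permutation tests, after thinning each nucleus to 1200 UMIs for shares. The limit for a share of 0 is 3 counts of the total. The scripts were tested on simulated data.

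Members and lists were chosen with earlier results of these data known. Named were all members, list genes called in any fit, a set of list genes whatever their values (1 of them is not reported here), and the 5 genes most like Slc10a2, Fabp6 and Nr1h4. C3, Efna3, Sct, St8sia6, Malrd1 and the leading cluster genes were named after their values were seen. So were the position genes Fabp1, Fabp2, Lct, Cubn, Amn and Guca2a.

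The deviations of same-numbered CON and SAP libraries correlated over all nuclei (0.573, 0.206 and 0.548, against -0.612 to 0.152 for other pairs), less evenly over epithelial nuclei (0.571, 0.0668 and 0.451, against -0.599 to 0.117) and over enterocyte-like nuclei (0.375, 0.0887 and 0.289, against -0.299 to -0.00118). The pairing comes from these correlations and not from the labels.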

Additional observations from a re-analysis of the deposited data

Results flagged for a closer look

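In 2 libraries the tables also list barcodes with fewer than 1000 UMIs, 15242 in CON replicate 2 and 20899 in SAP replicate 1, which no comparison above uses. Summed over them, Fabp6 was at 1129.1 CPM in SAP replicate 1 and 326 CPM in CON replicate 2, a ratio of 3.46. Slc51a was at 808.2 against 209.7 CPM, a ratio of 3.85, and Slc51b at 120.4 against 64.7 CPM, a ratio of 1.86. These 3 were looked at again because the level in barcodes outside the main measurement was above that of the control library. The other members were lower in SAP replicate 1, with ratios of 0.814 for Slc10a2, 0.643 for Nr1h4, 0.472 for Nr0b2 and 0.385 for Abcc3. With 1 library in each group there is no replicate check.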

How the results depend on the processing

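Of 430 alternative values of 33 fold changes of members and Fgf19 followed through the settings, which leave out some classes, 397 kept their direction, 32 reversed, 13 of them without CON replicate 1 and 6 under the replicate block, and 1 was called. In enterocyte-like nuclei the count of called genes was 1, and it was 2 with doublets removed, 160 with every gene with a count, 21 with DESeq2, 2 with the replicate block and 0 with cluster 1 added or at resolution 0.4, and 0 to 22 with a library left out (22 without CON replicate 3). In all epithelial nuclei it was 0, 282 with DESeq2, 1 at no more than 1% mitochondrial UMIs and 0 to 1 with a library left out, and in all nuclei 0, 196 with DESeq2 and 0 to 1. In the other classes it was 18, 970 with DESeq2, 28 with doublets removed, 2817 with every gene, 104 with the block and 7 to 285. The pathway lists had 0 calls, 1 with DESeq2 and 3 with every gene. With every gene tested, Slc51a (1.23) and Nr1h4 (1.24) were called in tuft nuclei.

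Nr1h4 in enterocyte-like nuclei turned to 0.00907 at the mitochondrial limit, 0.11 with cluster 1 and 0.0886 at resolution 0.4. Under the replicate block, epithelial Fabp6, Slc51b and Fgf19 turned to 0.13, 0.14 and 0.15, Fabp6 and Slc51b over all nuclei to 0.0645 and 0.12, and Slc51a in cluster 1 to 0.13, and no member call changed. In enterocyte-like nuclei the fold changes under the block were -1.30 for Fabp6, -0.61 for Slc51b, -0.60 for Slc10a2 and -0.35 for Slc51a. Those of Abcc3, Nr1h4 and Fgf19 were -0.57, -0.09 and -1.34. The share with an Slc51a UMI as counted differed by 0.966 points. With a library left out, fold changes ranged in enterocyte-like nuclei from -1.33 to 0.0569 for Slc10a2, -1.72 to 0.62 for Slc51a, -2.11 to 0.37 for Slc51b, -0.33 to 0.0913 for Nr1h4 and -4.45 to 0.97 for Fgf19. In epithelial nuclei they ranged from -0.14 to 0.92, -1.05 to 0.80 (Fabp6), -0.12 to 1.37, -0.71 to 1.06 and -2.93 to 1.91, and over all nuclei from -0.19 to 0.88, -0.93 to 0.75, -0.56 to 1.06 and -3.04 to 1.51 for Slc10a2, Fabp6, Slc51b and Fgf19. In cluster 1 they ranged from -0.23 to 0.64, -1.53 to 0.50, -0.91 to 1.01 and -1.60 to 0.73 for Slc10a2, Fabp6, Slc51a and Slc51b. Differences in shares ranged from -22.2 to 4.66 points for Fabp6, -12.7 to 10.1 for Slc51a, -19.3 to 2.27 for Slc51b and -6.46 to 3.57 for Nr1h4, and the enterocyte-like share of nuclei from 4.85 to 12.3 points. The cause was not tested. Class orders and ratios without a library were added after seeing the data. Few UMIs limit Nr0b2 and Fgf19.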

Other observations

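In non-epithelial nuclei Nr0b2 was at 5.81, 2.41 and 2.27 TMM-scaled CPM in CON and 0, 0.317 and 2.101 in SAP (log2 fold change -1.54, SE 0.799, adjusted p = 0.768, edgeR). These levels rest on few UMIs. Malrd1, a gene known to raise the output of the ileal hormone, was at 461, 607 and 602 CPM in CON and 687, 738 and 675 CPM in SAP in enterocyte-like nuclei (log2 fold change 0.33, SE 0.289, adjusted p = 0.789, edgeR), with no overlap between the groups, as for 13.9% of all tested genes. Malrd1 was named after its values were seen.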
